A study of Mus musculus with 10 samples.

Results

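The Zfp genes are the mouse genes whose symbol is Zfp followed by digits, and most of them encode zinc finger proteins. In a bulk RNA-seq time course of reprogramming, 372 such genes were listed, and 247 of them were chosen by their measured level, a mean of at least 5 TPM, a transcript level scaled for length and library size, over the 10 libraries, with Zfp42 set apart as a pluripotency marker. The series measured mouse embryonic fibroblasts (MEFs) from E13.5 embryos of the CBA/CaJ X C57BL/6J cross, which carry an Oct4-GFP reporter, after infection with retroviruses that carry the factors Oct4, Klf4 and Sox2 (OKS) and culture in iCD1 medium. The OKS+FoxO6 arm also received the forkhead factor FoxO6, and the control arm, OKS+DR, received the red fluorescent protein DsRed. Each arm was sampled on days 0, 1, 3, 5 and 7, and a single library stands for each arm on each day, so no day has a replicate check, and the p-values below describe the spread over days of these 2 time courses, not of independent infections. Retroviral delivery leaves a mixed population, and in bulk RNA fewer cells of a type and less RNA per cell cannot be told apart.

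C2H2 zinc finger proteins form the largest class of transcription factors in the mouse, and each finger is a short fold around a zinc ion that can contact a few bases of DNA. Many carry an amino-terminal KRAB domain, which binds Trim28 (KAP1) and through it the H3K9 methyltransferase Setdb1 and heterochromatin proteins, and this machinery silences endogenous retroviruses and holds imprints in embryonic cells. Other members have no repressor domain or work on RNA, and several of the genes named Zfp carry fingers of another kind.

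Translation of the longest coding sequence of each member in GENCODE M21 placed 121 of the 247 in a group with a KRAB pattern, with a median of 12 fingers, and 113 in a group with C2H2 fingers and neither a KRAB nor a SCAN pattern, with a median of 8. A SCAN pattern, a protein interaction domain, was found in 6 members (Zfp24, Zfp213, Zfp263, Zfp287, Zfp397 and Zfp444). No C2H2 finger was matched in the other 6 with a protein (Zfp36, Zfp330, Zfp365, Zfp503, Zfp703 and Zfp839), and Zfp125 had no coding sequence. Genes of the KRAB group were listed at lower levels, with a median mean TPM of 9.97 against 22.0 for the C2H2 group. The members often lay next to each other. With gaps of up to 200000 bases, 130 members stood in a run of at least 2 neighbours and 67 in a run of at least 5. The longest run held 15 genes, all of the KRAB group, between 21450374 and 22456689 on chromosome 17 (GRCm38).

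RefSeq promoter windows (GRCm38.p6, 250 bases before to 50 after the start) were matched by symbol for 200 members, giving 244 windows. The letters of the forkhead word GTAAACA, searched on both strands, stood in 1 of these windows (0.41%), against 2.35% of the windows of all genes of mean TPM of at least 5. The Oct octamer ATGCAAAT was in 2.05% of the windows of the members and in 1.32% of those of all such genes, the Sox word AACAATG was in 2.05% and 1.96%, and the Klf word GGGTGTG was in 8.61% and 8.17%. The octamer stood before 5 members, Zfp120, Zfp207, Zfp263, Zfp296 and Zfp428. The words were chosen after values had been seen, and a match is only a match of letters. The 3 stretches below, all from chromosome 7, are shown as examples: Zfp296, called in day 7 against day 0, and Zfp428, called in the arm shift, are the octamer holders with a call and were picked for that, while the other 3 holders had none, and Zfp688 holds the lone forkhead word. Capitals mark the word, on either strand, and each stretch ends before the annotated start: chr7:19577037-19577286 (plus strand) for Zfp296, chr7:24506837-24507005 (plus strand) for Zfp428 and chr7:127422069-127422284 (minus strand) for Zfp688.
Zfp296: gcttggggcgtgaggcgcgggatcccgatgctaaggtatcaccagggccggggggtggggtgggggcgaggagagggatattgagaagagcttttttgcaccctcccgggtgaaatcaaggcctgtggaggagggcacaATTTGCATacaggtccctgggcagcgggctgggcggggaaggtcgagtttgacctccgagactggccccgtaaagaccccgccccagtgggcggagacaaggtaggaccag
Zfp428: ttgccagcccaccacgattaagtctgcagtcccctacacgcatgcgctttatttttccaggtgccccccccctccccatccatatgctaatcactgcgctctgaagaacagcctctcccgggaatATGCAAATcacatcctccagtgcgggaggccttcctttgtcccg
Zfp688: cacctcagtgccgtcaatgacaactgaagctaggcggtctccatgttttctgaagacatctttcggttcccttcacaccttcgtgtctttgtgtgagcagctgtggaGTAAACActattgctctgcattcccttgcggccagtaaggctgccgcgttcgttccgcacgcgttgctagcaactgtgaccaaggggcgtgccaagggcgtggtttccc

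The libraries held 1208379 to 2225750 expected counts, with a median of 1601151, and a member held a median of 32.5 counts in a library, against 65.0 for all genes of mean TPM of at least 5. The day-by-day background shares below therefore come from genes with more counts, with a median mean TPM of 31.2 against 14.8 for the members. Foxo6 was listed at 0.61 to 2.29 TPM in the OKS+DR libraries and at 762 to 1325 TPM in the OKS+FoxO6 libraries, day 0 included, where it was at 1017 TPM. All 10 fibroblast markers fell between day 0 and day 7, and the summed level of 6 epithelial markers reached 655 TPM in OKS+DR and 148.5 TPM in OKS+FoxO6 at day 7. The summed level of the 6 pluripotent markers was 304.5 and 51.0 TPM on that day. Of the 6 macrophage markers 4 never passed 3 counts in any library, and Cd68 was at 7.95 to 52.6 TPM. Of the endothelial list, Emcn was at 0 in all libraries but 1, where it held 1 count, Cdh5 held at most 4 counts and Pecam1 reached 18 counts in OKS+DR at day 7, while Tek and Kdr were called higher in OKS+FoxO6. The part that these markers take in the results below was not tested.

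The members ran from a mean TPM of 5.12 to 255, with a median of 14.8. Those just inside the limit were Zfp113 at 5.12, Zfp563 at 5.14 and Zfp867 at 5.24, and those just outside were Zfp850 at 4.93, Zfp956 at 4.88 and Zfp575 at 4.85. A mean of at least 5 was reached in both arms by 229 members and in a single arm by 18. At least 1 library held 3 or fewer counts for 15 members. Because the mean over all libraries chose the members, their level is a description and carries no test.

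Zfp207, a microtubule and kinetochore protein, was the most abundant member. Its level was 256, 227, 261, 279 and 263 TPM in OKS+DR and 293, 279, 242, 253 and 200 TPM in OKS+FoxO6 on days 0, 1, 3, 5 and 7. The arms overlapped, and the arm difference was -0.00 on the log2 scale (SE 0.11, edgeR adjusted p = 0.987). Behind it stood Zfp57 (mean 114 TPM), Zfp326 (97.5), Zfp384 (88.1), Zfp106 (75.2), Zfp771 (69.2), Zfp664 (62.9) and Zfp598 (56.2). Zfp598, a ubiquitin ligase that acts on collided ribosomes, was at 41.3 to 57.7 TPM in OKS+DR and at 57.0 to 67.5 TPM in OKS+FoxO6. It was higher in OKS+FoxO6 on 5 of 5 days, but its arm difference of 0.24 (SE 0.12) had an edgeR adjusted p of 0.25.

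Whether the arms differed across the time course was asked with an edgeR quasi-likelihood fit on all genes that passed a low-count filter, with a term for each day and p-values adjusted by Benjamini-Hochberg over 12212 genes. Of the 246 members tested, 8 were higher and 12 lower in OKS+FoxO6 at an adjusted p under 0.05. Over all genes tested 6.63% were called higher and 6.89% lower, so the share of members called was below the background in both directions. When 1 day at a time was left out, 1 to 9 members were called higher and 1 to 8 lower. Over the 11854 to 12238 genes tested in those fits, 370 to 837 were called higher and 335 to 841 lower. In the main fit these were 810 and 841. Zfp57 and Zfp36 were called in every one of those fits, and the other 18 lost their call in at least 1 of them.

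Zfp57, the KRAB protein that keeps methylation at imprinted loci, was lower in OKS+FoxO6 on 5 of 5 days. It was at 91.5, 109, 184, 177 and 195 TPM in OKS+DR, and at 55.2, 59.9, 66.7, 109 and 91.9 TPM in OKS+FoxO6. The level rose over time in both arms, so the later OKS+FoxO6 libraries reached the early OKS+DR ones. The arm difference was -0.98 (SE 0.15, edgeR adjusted p = 0.00173), and leaving out any day gave an adjusted p of at most 0.0106.

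Among the called genes the lowest difference was that of Zfp467, known for promoting fat cell fate. It was at 8.43, 20.8, 19.7, 12.3 and 9.18 TPM in OKS+DR and at 4.72, 2.73, 6.72, 7.80 and 5.50 TPM in OKS+FoxO6. Every OKS+FoxO6 library lay below every OKS+DR library, and the difference was -1.47 (SE 0.34, edgeR adjusted p = 0.0175), which was 0.0749 without day 3, 0.0701 without day 5 and 0.0529 without day 1. Zfp428, a small protein with 1 matched finger whose promoter stretch is printed above, was at 42.3, 24.8, 37.2, 22.3 and 66.7 TPM in OKS+DR and at 23.6, 16.3, 14.7, 17.9 and 27.5 TPM in OKS+FoxO6. The levels overlapped between the arms but were lower in OKS+FoxO6 on each day, with a difference of -0.92 (SE 0.22, edgeR adjusted p = 0.0217), and that p was 0.0506 without day 0, 0.0892 without day 3 and 0.0669 without day 7. KRAB genes made up 7 of the 12 that were lower in OKS+FoxO6, or 7 of the 120 KRAB genes tested, beside the 6.89% of all genes, namely Zfp57, Zfp763 (-1.10), Zfp808 (-0.90), Zfp970 (-0.86), Zfp990 (-0.85), Zfp961 (-0.82) and Zfp930 (-0.80). The other 5 were Zfp467, Zfp428, Zfp41 (-0.79), Zfp532 (-0.49) and Zfp710 (-0.44). Of the 12, 9 were lower on 5 of 5 days, and of the 8 called higher, 4 were higher on 5 of 5 days. The calls rest on these same days, so such counts follow largely from the selection and are no separate support. Whether called or not, 20 of the 247 members were lower on 5 of 5 days, against 9.64% of all genes. Higher on 5 of 5 days were 14 members, against 11.63% of all genes. All 10 libraries held counts split between similar genes for Zfp808 and Zfp970 and 9 did for Zfp990, which leaves their values uncertain.

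Among the genes that were higher in OKS+FoxO6, Zfp36 encodes tristetraprolin, a CCCH finger protein that binds AU-rich elements and promotes mRNA decay. It was at 18.8, 15.3, 23.5, 22.8 and 11.2 TPM in OKS+DR and at 43.0, 31.6, 41.2, 32.9 and 26.2 TPM in OKS+FoxO6. The arms did not overlap, and the difference was 0.94 (SE 0.18, edgeR adjusted p = 0.00689), with an adjusted p of at most 0.0278 when a day was left out. Zfp326, a protein of the complex that couples elongation to splicing, was at 30.7, 70.2, 97.3, 53.9 and 81.0 TPM in OKS+DR and at 65.6, 162, 144, 154 and 116 TPM in OKS+FoxO6. It was higher on 5 of 5 days by 0.70 (SE 0.14, edgeR adjusted p = 0.0089), and without day 5 the adjusted p was 0.0576.

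The highest difference among the called genes was that of Zfp711, an X-linked factor, at 1.65, 3.52, 8.28, 1.94 and 1.69 TPM in OKS+DR and 7.70, 6.80, 12.3, 12.2 and 2.68 TPM in OKS+FoxO6. The difference was 1.52 (SE 0.33, edgeR adjusted p = 0.0127), higher on 5 of 5 days, and the adjusted p was 0.0781 without day 3 and 0.0704 without day 5. Its mean of 3.42 TPM in OKS+DR and 8.33 TPM in OKS+FoxO6 means that it passed the level limit only through the arm where it is high, so its call is no support for a shift among the members, and the same holds for the lower call of Zfp763, at 8.19 and 3.85 TPM. Zfp760, of the long run on chromosome 17, was at 3.36, 10.2, 9.91, 8.45 and 4.21 TPM in OKS+DR and at 12.2, 22.6, 15.6, 24.0 and 4.04 TPM in OKS+FoxO6. It was higher on days 0 to 5 and level on day 7, with a difference of 1.03 (SE 0.24, edgeR adjusted p = 0.0175), and the adjusted p was 0.0631 without day 1 and 0.106 without day 5. The remaining calls were Zfp169 (1.17), Zfp747 (0.86), Zfp655 (0.72) and Zfp608 (0.71). Zfp53, of the same run, was past 2-fold higher on 4 of 5 days, and its arm difference of 0.96 (SE 0.33) had an edgeR adjusted p of 0.0822.

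**Figure D1:**
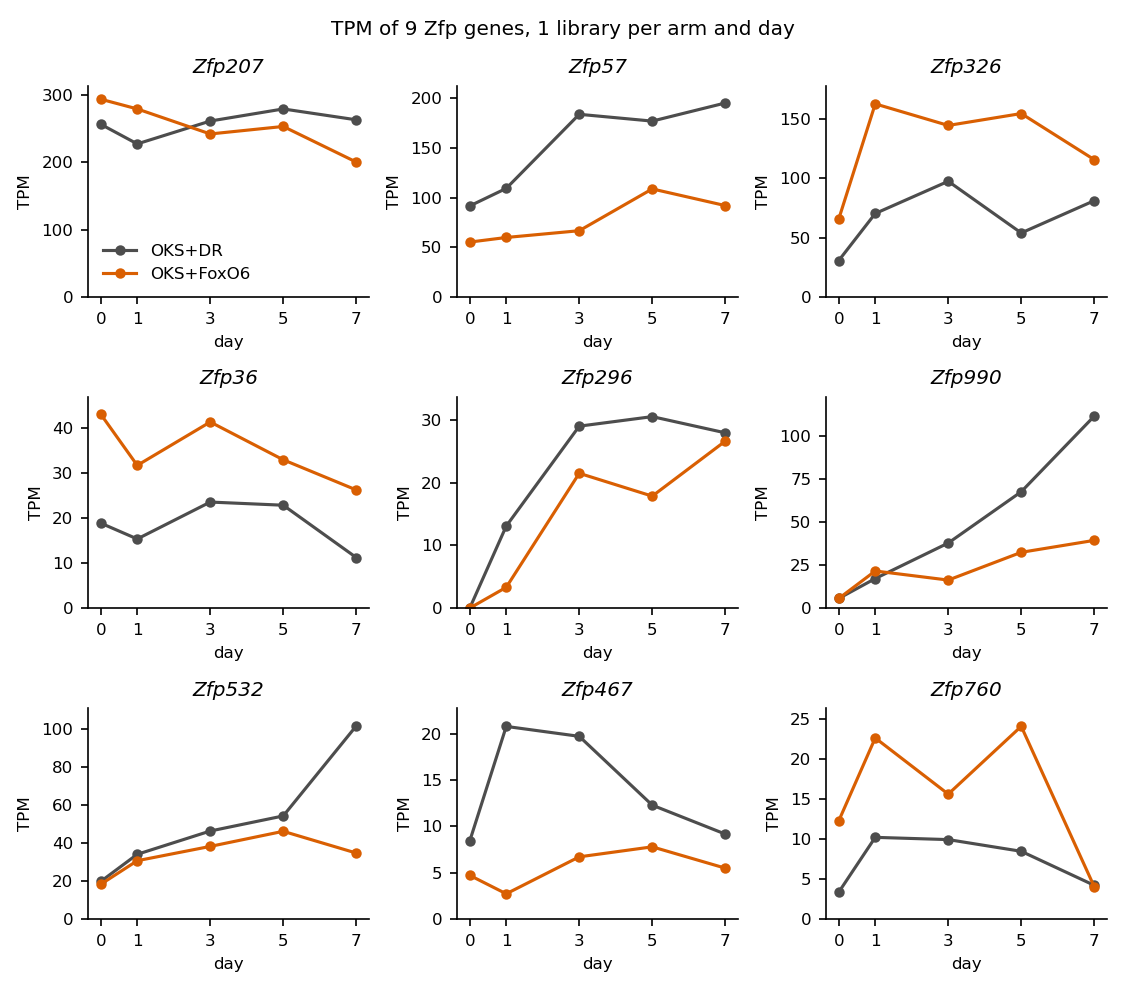
TPM (vertical axis, from 0) against day for 9 Zfp genes, each point 1 library, with OKS+DR in grey and OKS+FoxO6 in orange. Zfp36 and Zfp467 do not overlap between the arms, Zfp207 does, and Zfp990 reached 112 TPM in OKS+DR and 39.3 TPM in OKS+FoxO6 at day 7.

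Between day 0 and day 7, in the same fit with the arm as a term, 22 members rose and 5 fell. Over all genes tested 11.7% rose and 10.1% fell, so a smaller share of the members was called in either direction, and fewer fell than rose. The median change of the members tested was 0.23 on the log2 scale, against 0.03 for all genes tested. Of the 27 members, 8 were called under each of the 7 alternative fits: Zfp41, Zfp57, Zfp275, Zfp296, Zfp532, Zfp808, Zfp961 and Zfp990.

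Zfp296, a pluripotency factor that interacts with Klf4, had no count at day 0. It was listed at 0, 13.1, 29.0, 30.5 and 27.9 TPM in OKS+DR and at 0, 3.31, 21.5, 17.8 and 26.6 TPM in OKS+FoxO6. Neither day 0 library held a count, and against 3 counts in that library the day 7 level was at least 8.6-fold higher in OKS+DR and at least 16.6-fold higher in OKS+FoxO6, both bounds for counting error only. The edgeR adjusted p was 0.000398. The gene was present from day 1 in both arms, and its arm difference of -0.60 (SE 0.33) had an edgeR adjusted p of 0.275.

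Zfp990, a KRAB gene, rose by 3.55 (SE 0.41, edgeR adjusted p = 0.000162). It was at 5.60, 17.2, 37.8, 67.6 and 112 TPM in OKS+DR and at 5.59, 21.6, 16.3, 32.4 and 39.3 TPM in OKS+FoxO6. The arms started level, crossed at day 1 and stood apart from day 3. Zfp961, also of the KRAB group, rose by 2.30 (SE 0.36, edgeR adjusted p = 0.000932), from 6.20 to 49.1 TPM in OKS+DR and from 8.59 to 24.6 TPM in OKS+FoxO6. Zfp532 rose by 1.67 (SE 0.23, edgeR adjusted p = 0.000394). It went from 19.8 to 102 TPM in OKS+DR and from 18.3 to 34.8 TPM in OKS+FoxO6, and the OKS+DR library of day 7 stood highest.

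The other rises ran from 1.86 for Zfp808 to 0.63 for Zfp710 and included Zfp41 (1.70), Zfp141 (1.65), Zfp59 (1.64), Zfp738 (1.64), Zfp932 (1.41), Zfp292 (1.27) and Zfp868 (1.19). KRAB genes made up 10 of the 22, or 10 of the 120 KRAB genes tested, beside the 11.7% of all genes. For Zfp738 and Zfp932 the counts of all 10 libraries were split between similar genes. Zfp738 was called over both arms but went from 1.5 to 9.98 TPM in OKS+DR and from 4.27 to 3.96 TPM in OKS+FoxO6. The 5 genes that fell were Zfp28 (-1.89), Zfp651 (-1.22), Zfp275 (-1.17), Zfp503 (-0.79) and Zfp703 (-0.78). Zfp503 and Zfp703 encode related corepressors with an atypical finger, and Zfp703 was at 47.1, 34.3, 19.1, 20.3 and 27.3 TPM in OKS+DR and at 57.6, 20.5, 20.2, 21.6 and 30.8 TPM in OKS+FoxO6. Both arms fell by day 3 and were partly back at day 7.

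Both contrasts called 8 members. Of these, 7 were higher at day 7 and lower in OKS+FoxO6, namely Zfp41, Zfp57, Zfp532, Zfp710, Zfp808, Zfp961 and Zfp990, while Zfp326 was higher in both. These were 3.25% of the members tested for both contrasts and 2.85% for the lower and later higher combination, against 6.12% and 2.89% of all genes tested, so neither share was above the background. The contrasts come from a single fit and share all libraries, so the values are given side by side. Whether the course itself differed between the arms was asked by an interaction of arm with day as a number. No member was called, and 0.0% of all genes tested were. At an unadjusted p under 0.05, edgeR gave 4 members (1.63%) with a higher slope in OKS+FoxO6 and 12 (4.88%) with a lower one, against 4.37% and 4.1% of all genes tested. DESeq2, which also called no member, gave 3 and 9, against 3.47% and 3.44% of all genes tested. The edgeR fit with a length offset gave 11 and 10, against 4.29% and 3.23%, so the imbalance was not present on that scale. Without day 7 the main fit gave 3 and 4 of 245 members, against 263 and 280 of 11854 genes tested.

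**Figure D2:**
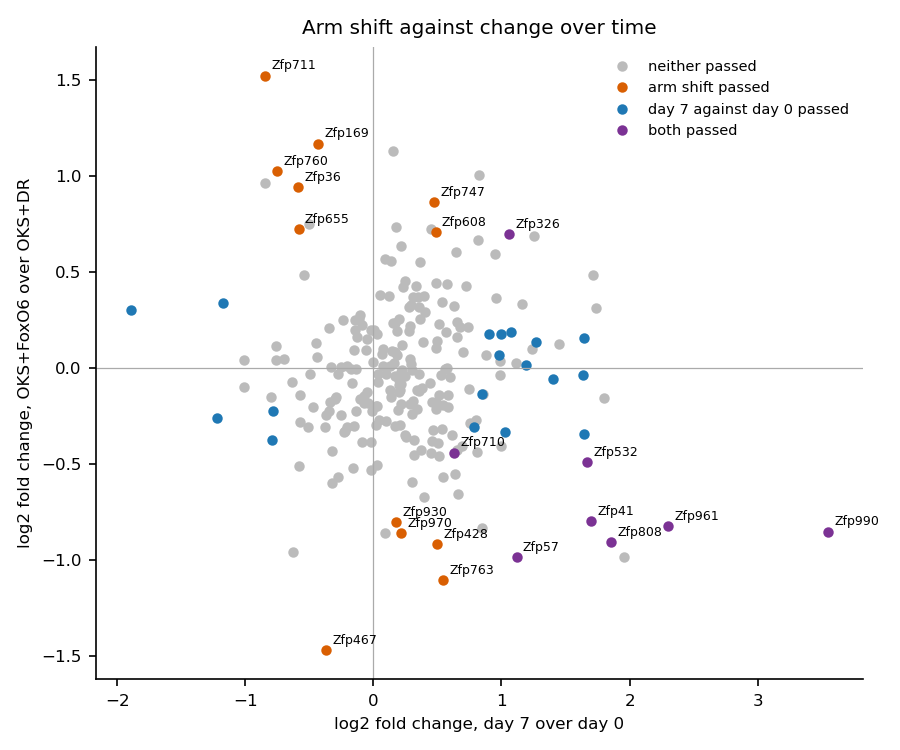
Each point is 1 of the tested Zfp genes except Zfp296, which was listed at 0 on day 0. The horizontal axis is the log2 fold change of day 7 over day 0 and the vertical axis that of OKS+FoxO6 over OKS+DR, both from edgeR. Zfp990 lies farthest right at 3.55 and -0.85, and the 20 genes called in the arm shift carry their symbols.

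By role, the 10 members listed under RNA and ribosomes included 2 that were higher in OKS+FoxO6, Zfp36 and Zfp326, and none called lower. The list is too short to set against the 6.63% and 6.89% called over all genes. It is a loose list that includes Zfp207, described above as a microtubule and kinetochore protein. The rest of that list had arm differences between -0.32 for Zfp706 (edgeR adjusted p = 0.0858) and 0.24 for Zfp598. Zfp622, a factor of large ribosomal subunit maturation, was at 24.4 to 35.7 TPM in OKS+DR and 33.5 to 40.4 TPM in OKS+FoxO6. Of 14 members linked to pluripotency or chromatin, 2 were called lower in OKS+FoxO6 (Zfp57 and Zfp532) and none higher, and 4 rose by day 7 (Zfp57, Zfp296, Zfp516 and Zfp532), where 6.89% of all genes tested were called lower and 11.7% rose.

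Zfp809, which silences retroviruses through their primer binding site, was at 34.7, 39.3, 51.9, 67.4 and 40.5 TPM in OKS+DR and at 33.7, 44.3, 61.8, 49.5 and 23.2 TPM in OKS+FoxO6. It peaked in mid course in both arms, and the arm difference was -0.18 (SE 0.19, edgeR adjusted p = 0.591). Zfp462 was at 62.8 TPM on day 5 in OKS+DR and at 25.6 TPM in OKS+FoxO6, with an arm difference of -0.44 (SE 0.21, edgeR adjusted p = 0.216). Zfp281, a partner of Nanog, was at 11.8 to 18.6 TPM in OKS+DR and at 6.42 to 20.4 TPM in OKS+FoxO6.

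Of 11 genes of mesenchymal, fat and neural lineages named for comparison, 10 were found and 9 tested. Zfp467 was called lower in OKS+FoxO6, Zfp704 rose by day 7 (1.08) and Zfp503 and Zfp703 fell, beside 6.89%, 11.7% and 10.1% of all genes tested. The median arm difference of the list was -0.37. Zfp521, a regulator of mesenchymal fate, was at 9.79 TPM in OKS+DR and 22.7 TPM in OKS+FoxO6 at day 7, with an arm difference of 0.60 (SE 0.21, edgeR adjusted p = 0.0795). The other way lay Zfp365 (-0.57, edgeR adjusted p = 0.0926) and Zfp503 (-0.37, edgeR adjusted p = 0.105). Zfp423 and Zfp536 of that list lay below the level limit, at 2.76 and 3.10 TPM, and Zfp423 had an arm difference of -1.66 (SE 0.55, edgeR adjusted p = 0.0724).

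The partners of KRAB proteins were followed as the other genes of the pathway. Of 14, 3 were called lower in OKS+FoxO6, namely Uhrf1 (-0.79), Cbx5 (-0.71) and Setdb1 (-0.53), and none higher, beside 6.89% and 6.63% of all genes tested. Their edgeR adjusted p-values were 0.00625, 0.00837 and 0.0418. The list is short for that comparison, and these calls were not followed in the fits that left out a day. Cbx3 (0.80) and Atrx (0.97) were called higher at day 7, but Atrx went from 42.4 to 126 TPM in OKS+DR and from 49.1 to 38.3 TPM in OKS+FoxO6. Trim28, which the KRAB domain binds, was at 403, 449, 433, 558 and 617 TPM in OKS+DR and at 425, 402, 374, 400 and 493 TPM in OKS+FoxO6. It was lower in OKS+FoxO6 from day 1 on, with an arm difference of -0.26 (SE 0.10, edgeR adjusted p = 0.13).

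The members were also compared between the arms day by day, as the difference of log2(TPM + 1) between OKS+FoxO6 and OKS+DR, without a test since each day has 1 library per arm. The median member differed by 0.26, -0.01, 0.04, 0.02 and -0.36 on days 0, 1, 3, 5 and 7. The medians of the 11491 genes of mean TPM of at least 5 were 0.11, 0.00, 0.01, 0.03 and -0.13. The members thus stood above all genes on day 0 and below them on day 7, and close to them in between. Higher on day 0 and lower on day 7 were 118 members (47.8%), against 33.1% of all such genes. Much of that gap is set by each day alone. On day 0, 64.8% of the members and 58.0% of all such genes were higher. On day 7, 178 of the 247 members and 6657 of the 11491 genes were lower. The joint count was not made with the trend of length, described below, removed.

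On day 0, 30 members were past 2-fold higher in OKS+FoxO6 and 3 were past 2-fold lower, against 7.87% and 4.2% of all such genes. On day 1 the counts were 16 and 11 (background 5.39% and 6.47%), on day 3 they were 11 and 15 (5.62% and 8.42%) and on day 5 they were 18 and 11 (7.69% and 7.8%). On day 7, 8 members were higher and 46 lower, against 6.67% and 12.7% of all such genes. In percent of the 247 members, the 30 higher genes of day 0 were 12.1% and the 46 lower genes of day 7 were 18.6%. The shares of days 1, 3 and 5 lay near the background or below it. On no day were the arms more than 2-fold apart for 137 members. The share of all such genes was not counted, so this number has no background to be set against.

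**Figure D3:**
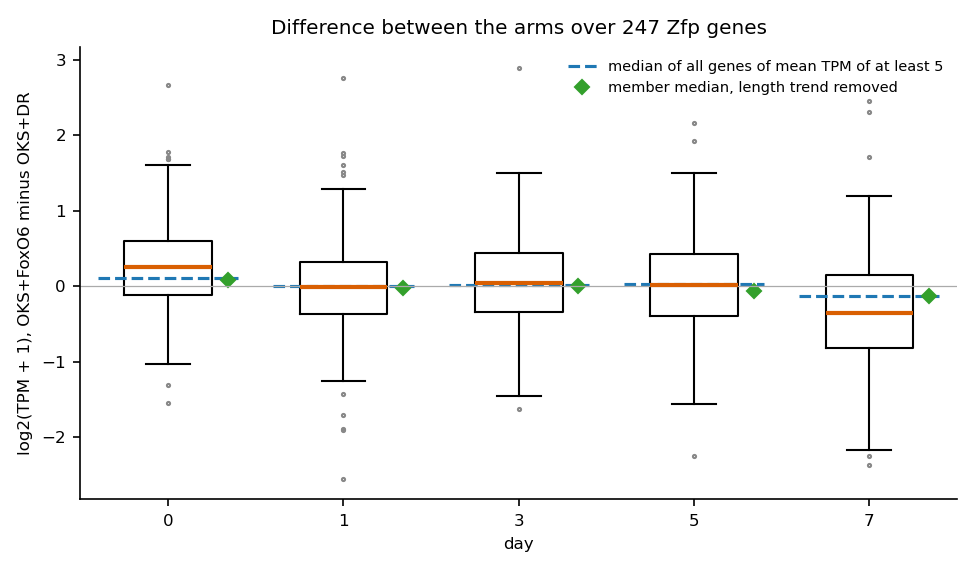
Box plots of the difference of log2(TPM + 1), OKS+FoxO6 minus OKS+DR, over the 247 Zfp genes by day, with boxes from the first to the last quartile, whiskers to 1.5 times the box height, dots beyond them and the median in orange. The dashed line is the median of all genes of mean TPM of at least 5, and the diamond is the member median with the length trend removed: -0.36 became -0.13 on day 7.

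Transcript length moved with these differences. The members had a median length of 2928 bases, against 2531 for all genes of mean TPM of at least 5. Over all such genes cut into 5 bins of length, the median difference ran from -0.10 in the shortest bin to 0.33 in the longest on day 0, and from 0.13 to -0.48 on day 7. Over the members it ran from 0.07 to 0.42 on day 0 and from -0.26 to -0.51 on day 7. Pearson's r of the difference with log2 length was 0.14 on day 0 and -0.16 on day 7 over the 247 members, which share the same libraries, and 0.17 and -0.20 over all such genes. On days 1, 3 and 5 the medians of all length bins of all genes lay between -0.05 and 0.10.

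With the trend of all genes with length removed, the median member differed by 0.09, -0.03, 0.01, -0.06 and -0.13 on the 5 days. The count past 2-fold fell from 30 to 19 higher on day 0 and from 46 to 33 lower on day 7. On that scale these were 7.69% and 13.4% of the members, against 5.72% and 8.68% of all genes of mean TPM of at least 5. On log2 CPM, which is not scaled for length, the member medians were 0.14 on day 0 and -0.19 on day 7. Those of all such genes were 0.04 and 0.01. That scale kept the trend with length, as Pearson's r over all such genes was 0.21 on day 0 and -0.22 on day 7. The fit with a length offset kept all 20 arm calls and added Zfp445, and it kept all 27 calls of day 7 against day 0 and added Zfp60, Zfp93 and Zfp462. This is a weak check on length. The arm shift averages over the days, and the length trend had opposite signs on days 0 and 7. The day contrast averages over the arms. Removing the trend lowered the members' median day 7 change in OKS+DR (0.49 to 0.34) and raised it in OKS+FoxO6 (-0.07 to 0.15).

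**Figure D4:**
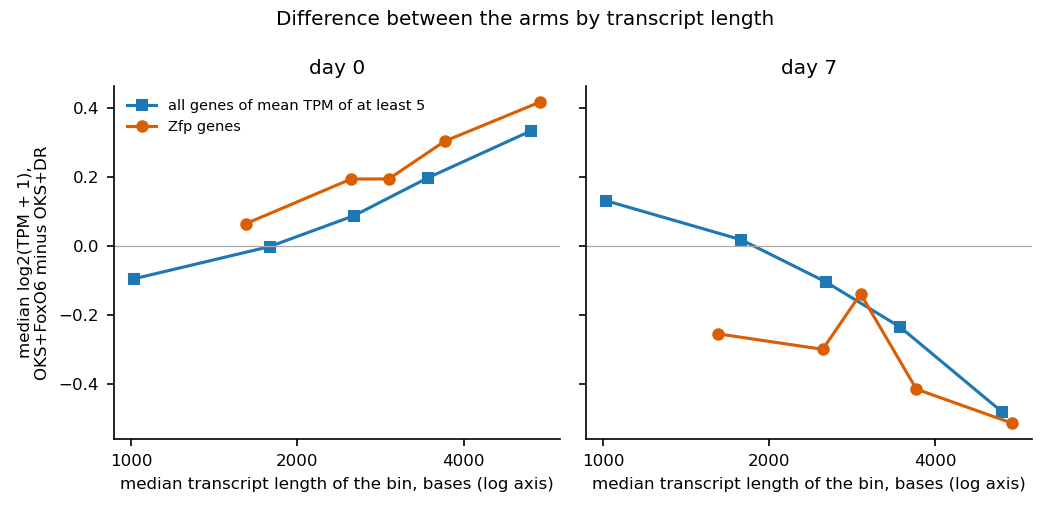
Median difference of log2(TPM + 1), OKS+FoxO6 minus OKS+DR, in 5 bins of transcript length (log axis, bases) on day 0 and day 7, for all genes of mean TPM of at least 5 (squares) and the Zfp genes (circles). For all genes the difference rises from bin to bin on day 0 and falls on day 7, while the Zfp genes on day 7 are least negative in the middle bin, at -0.14, and the shortest Zfp bin lies at -0.26 on day 7 where the shortest bin of all genes lies at 0.13.

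Each arm was then followed from its own day 0. In OKS+DR the median member was 0.32, 0.50, 0.60 and 0.49 above day 0 on days 1, 3, 5 and 7, and in OKS+FoxO6 it was 0.11, 0.27, 0.40 and -0.07 from it. All genes of mean TPM of at least 5 had medians of 0.16, 0.18, 0.16 and 0.09 in OKS+DR and 0.05, 0.09, 0.10 and -0.10 in OKS+FoxO6. With the length trend removed the members were at 0.14, 0.25, 0.37 and 0.34 in OKS+DR and at 0.03, 0.16, 0.29 and 0.15 in OKS+FoxO6. The median member was higher than on day 0 at each later day in both arms on that scale, and the day 7 value of OKS+FoxO6 turned from -0.07 to 0.15. On day 1 in OKS+FoxO6 the median was near 0, with 130 of the 247 members higher. The medians of all such genes on that scale lay between -0.01 and 0.02. The 2 arms have separate day 0 libraries, and these values rest on them.

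**Figure D5:**
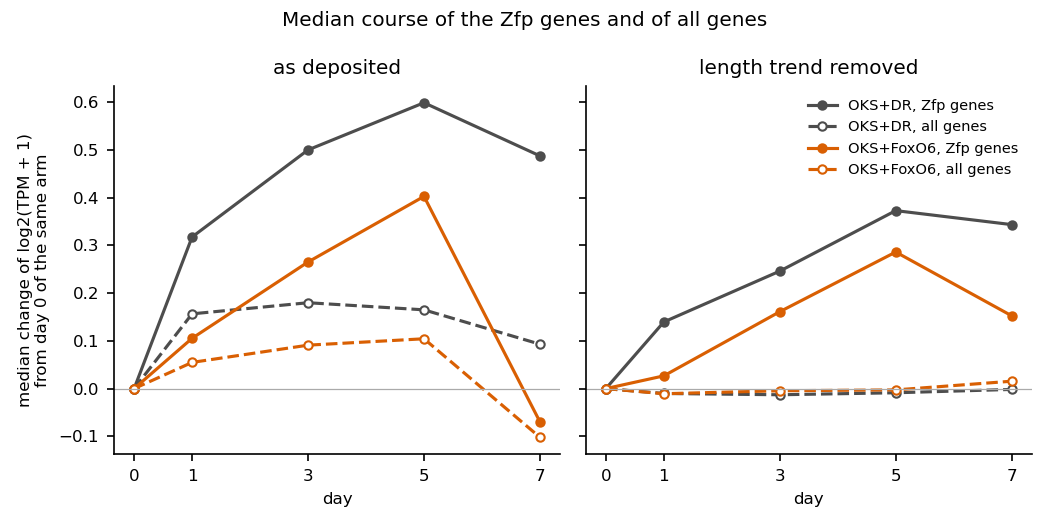
Median change of log2(TPM + 1) from day 0 of the same arm against day, for the Zfp genes (solid) and all genes of mean TPM of at least 5 (dashed), as deposited and with the length trend removed. The Zfp genes of OKS+DR peak at 0.60 on day 5 as deposited and at 0.37 with the trend removed.

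As a share of all counts, the members took 0.636, 0.756, 0.858, 0.914 and 0.918% in OKS+DR and 0.687, 0.785, 0.869, 0.925 and 0.765% in OKS+FoxO6. The share climbed in step in both arms up to day 5 and was lower on day 7 in OKS+FoxO6. Their summed level on day 7 was 5682 TPM in OKS+DR and 4458 TPM in OKS+FoxO6.

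Protein groups differed most on day 7. The median difference between the arms was -0.55 in the KRAB group and -0.17 in the other 126 members, and with the length trend removed it was -0.33 and 0.06. Among members of mean TPM of at least 10, which takes 58 KRAB genes and 107 others, these medians were -0.63 and -0.17, or -0.45 and 0.06 with the trend removed. On day 0 the 2 groups stood at 0.27 and 0.25. Genes are not replicates of a condition, so the values are descriptive and carry no test.

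The run of 15 KRAB genes on chromosome 17 had median differences of 0.62, 0.41, 0.60, 0.26 and -0.05 on days 0, 1, 3, 5 and 7. Of the 15, 12 were higher on day 0, as were 64.8% of all members, and Zfp760 was called in the arm shift. The run of 9 members between 29768552 and 30169750 on chromosome 7, with Zfp146, Zfp260 and Zfp568, had medians of 0.01, -0.19, -0.16, -0.44 and -0.63. On day 7 it was lower in 7 of 9 genes, as were 178 of the 247 members, and none was called. Zfp568, which represses a placental Igf2 transcript, was at 26.4 TPM in OKS+DR and at 8.04 TPM in OKS+FoxO6 on day 7. Counts that were not whole in at least 1 library, within 0.005 of a count, showed reads split between similar genes for 76 members. The 171 others had medians of 0.26 on day 0 and -0.32 on day 7.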

How the data were processed

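RNA from 10 libraries was sequenced; the labels and the methods name different library kits. The authors aligned reads to the GENCODE M13 transcriptome with RSEM and Bowtie2 (mm10, versions not given in the sources used here) and deposited expected counts and TPM per gene; the table of the series held the same expected counts for 48476 genes. Here the expected counts were rounded and tested with edgeR 4.0.16 (quasi-likelihood, TMM, filterByExpr) in R 4.3.3, with DESeq2 1.42.0 and limma 3.58.1 as alternatives, and adjusted by Benjamini-Hochberg over all genes tested. The code was tested on simulated data. Daily differences used log2(TPM + 1), and the length trend was a lowess curve with a span of 0.5. Positions and coding sequences came from GENCODE M21, and promoters from RefSeq GRCm38.p6. Totals of 1208379 to 2225750 counts per library limit the precision of low genes. Members and lists were chosen with earlier results of these data known. Named genes were the 8 highest members, called members, those past 2-fold on at least 4 days, those at the limit and the role lists.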

Additional observations from a re-analysis of the deposited data

How the results depend on the processing

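The arms were paired by day through the day term. No call changed direction. Members called higher and lower in the arm shift numbered 8 and 12, with 810 and 841 over all genes tested. DESeq2 gave 5 and 3 (585 and 602 over all genes) and limma on log2(TPM + 1) 2 and 3 (540 and 377). The unpaired fit without the day term gave 0 and 0 (125 and 44). Leaving out 1 day gave 1 to 9 higher and 1 to 8 lower, fewest without day 5 or day 3. Calls over all genes were also fewest there, at 370 and 335 without day 5 and 400 and 373 without day 3. The length offset without day 7, chosen after seeing the data, gave 9 and 5 (813 and 925 over all genes). Of day 7 against day 0 (22 and 5, with 1431 and 1237 over all genes), DESeq2 gave 14 and 3 (1094 and 972) and limma 14 and 2 (1082 and 991). Days 5 and 7 against days 0 and 1 gave 13 and 2 (1055 and 1024). The slope gave 0 in each alternative. Past 2-fold on day 0, log2 CPM gave 19 higher and the length trend removed 19; on day 3 a pseudocount of 0.1 gave 18 higher and log2 CPM 7 lower; on day 5 log2 CPM gave 11 higher, and a mean TPM of at least 5 in each arm 5 lower. A mean TPM of at least 10, which keeps fewer members, gave 13 and 1 on day 0, 7 and 4 on day 1, 3 and 8 on day 3, 9 and 4 on day 5, and 27 lower on day 7. The day 7 median of -0.36 was -0.13 with the length trend removed and -0.19 on log2 CPM, and the day 0 median of 0.26 was 0.09 and 0.14. On log2 CPM the trend with length remained, and the median of all genes of mean TPM of at least 5 moved too. It went from -0.13 to 0.01 on day 7 and from 0.11 to 0.04 on day 0. Other than for these constructions, the cause was not tested.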
